A study of Mus musculus with 9 samples.

Results

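The 26 genes described here make, sense and move cholesterol, and they were compared between kidneys of wild-type mice and mice labelled Bmal1 -/-. They were chosen by symbol, as 18 enzymes of the synthesis pathway, the transcription factor SREBP2 with 3 proteins that control it, and 4 proteins that carry or store sterols. They are 26 of the 23282 rows in each library's table. All 26 passed the filter on low values, which asked for an adjusted read count x of at least 10 in 4 or more libraries and kept 13481 rows. Not every enzyme of the pathway is among them.

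Whole-kidney RNA was profiled in 9 libraries, 4 wild type and 5 knockout for Bmal1 (gene symbol Arntl), which encodes a core activator of the circadian clock. Both groups are on the C57BL/6 strain and carry no other allele or treatment in the labels. Age, sex, hour of sampling, the deleted part of the gene and the tissues it was deleted from are not stated in the labels. The labels do not tie a library to an animal, and p-values here reflect library-to-library spread, which may be technical. Libraries were made with the Lexogen QuantSeq kit, which reads about 1 tag at the 3′ end of each polyadenylated transcript. Values are given as deposited, log2(x + 1), and a difference is knockout minus wild type on that scale.

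Cholesterol is built in the endoplasmic reticulum and cytosol from acetyl-CoA. The mevalonate steps give isoprenoid units, these are joined to squalene, squalene is closed to lanosterol, and the sterol ring is then trimmed to cholesterol. When membranes are short of sterol, Scap escorts SREBP2 to the Golgi for cleavage, and the released fragment switches on most of these enzymes at sterol regulatory elements, commonly beside boxes bound by the factor NF-Y. When sterol is plentiful, Insig proteins hold Scap back. The kidney takes up lipoproteins as well as making its own cholesterol.

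Promoter sequences are shown for 5 members, 3 that were lower in knockout (Acat2, Hmgcs1, Mvd), the member whose knockout values all lay above wild type (Pmvk), and the sterol sensor Insig1. They come from RefSeq on GRCm38.p6, run 5′ to 3′ on the gene's strand from base -180 before the start site, and stop before the earlier of the RefSeq and GENCODE starts. Capitals mark matches, on either strand, to the sterol regulatory element core TCACNCCAC, the E-box CACGTG bound by Bmal1 and its partner Clock, and the NF-Y box CCAAT.
Acat2, chr17:12960748-12960905, - strand: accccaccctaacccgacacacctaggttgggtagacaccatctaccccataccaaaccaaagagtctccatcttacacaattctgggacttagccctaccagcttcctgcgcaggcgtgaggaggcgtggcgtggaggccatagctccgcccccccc
Hmgcs1, chr13:119690171-119690350, + strand: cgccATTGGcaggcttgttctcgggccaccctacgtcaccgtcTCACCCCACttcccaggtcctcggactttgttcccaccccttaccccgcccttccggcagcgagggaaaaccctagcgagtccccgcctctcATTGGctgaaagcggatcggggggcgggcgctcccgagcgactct
Pmvk, chr3:89454361-89454540, + strand: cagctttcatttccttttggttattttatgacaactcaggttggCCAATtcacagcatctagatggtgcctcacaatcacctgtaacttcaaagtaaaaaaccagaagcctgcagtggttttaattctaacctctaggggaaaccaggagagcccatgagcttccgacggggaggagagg
Mvd, chr8:122443423-122443602, - strand: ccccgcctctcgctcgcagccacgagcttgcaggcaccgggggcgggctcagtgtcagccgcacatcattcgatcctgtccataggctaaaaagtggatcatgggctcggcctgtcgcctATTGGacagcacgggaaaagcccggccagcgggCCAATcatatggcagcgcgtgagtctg
Insig1, chr5:28071232-28071362, + strand: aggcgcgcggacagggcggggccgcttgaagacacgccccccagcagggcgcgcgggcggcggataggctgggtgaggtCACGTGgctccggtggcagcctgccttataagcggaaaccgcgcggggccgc

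Promoter windows from 250 bases before to 50 after a start site were held for 21 of the 26 genes, and not for Fdps, Fdft1, Sqle, Stard4 and Npc1. An NF-Y box lay in a window of 19 of these 21 genes, against 41.1% of all genes with a window. It lay in 19 of their 27 windows, against 37.4% of 32851 windows of all genes. The E-box was found in 5 of the 21 genes, Hsd17b7, Sc5d, Dhcr7, Scap and Insig1, against 8.09% of all genes. By window it was 6 of 27 against 7.15% of all, where the overlapping windows of Scap hold the same site. The sterol regulatory element core was found in Hmgcs1 alone, at base -137 from its start, against 1.24% of all windows and 1.44% of all genes. A TCACNCCAC match can run into a CACGTG match, but in these promoters none did. Of the 4 lower members with a window, Hmgcs1 and Mvd held NF-Y boxes, Scap held an E-box and Acat2 held no match. These are matches of letters in a short window, described without a test.

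The libraries had adjusted totals of 11765219 to 13486444. Arntl itself read 6.68, 6.26, 7.06 and 6.76 in wild type against 5.95, 5.65, 5.99, 5.80 and 5.86 in knockout, lower in all 5 knockouts (difference -0.84, SE 0.21, limma adjusted p = 0.0112). A tag at the 3′ end need not lie in the deleted part, so this does not check the labels. Rn45s, the ribosomal RNA precursor, took 11.3% of adjusted reads in wild type 2, against 5.07%, 6.17% and 7.20% in wild types 1, 3 and 4. Its share was 6.83% to 14.4% in the knockouts. The globin share of wild type 2, 1.46%, was also above the 0.585% to 0.690% of the other wild types. Of the 26 genes, 16 had their lowest wild-type value in wild type 2, against 2 to 6 in each of the others, and results are given without it where it decides them.

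In knockout kidneys 5 of the 26 genes fell and none rose (limma with Benjamini-Hochberg adjustment over all 13481 genes, threshold 0.05). The genes that fell were Sqle, Mvd, Hmgcs1, Acat2 and Scap, by 0.36 to 0.90 on the log2 scale. Among all tested genes 14.4% were called, 8.20% as lower and 6.16% as higher, and the 5 of 26 called lower make 19.2%. The 26 genes were chosen with earlier results of these data known, so these and the following shares are description only. At an unadjusted p under 0.05 the counts were 11 lower and 2 higher, beside 14.6% lower and 12.9% higher of all tested genes at that threshold. The median difference over the 26 genes was -0.27, beside 0.0002 over all tested genes, and 22 of the 26 differences were below 0 (18 to 24 over the alternatives run). In bulk tissue fewer cells of a type and less RNA per cell cannot be told apart. All 5 knockouts lay below all 4 wild types in 5 genes, or 19.2% against 8.46% of all genes, and above them in 1 gene against 5.86% of all.

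**Figure D1:**
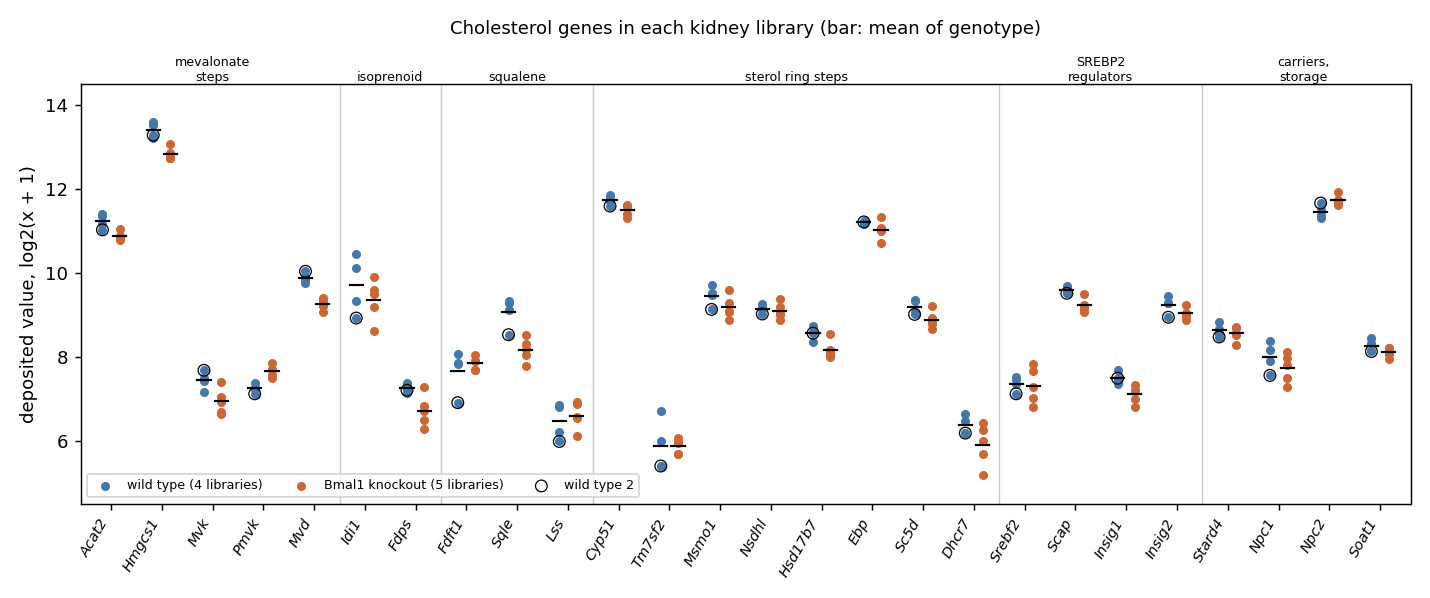
Deposited log2(x + 1) values (vertical axis) of the 26 genes in pathway order (horizontal axis), with 1 point for each of the 4 wild-type (blue) and 5 knockout (orange) libraries and a bar at each genotype mean; wild type 2 is ringed. Sqle, Mvd and Hmgcs1 show knockout points wholly below wild type, Pmvk shows them wholly above, and the ringed library lies at the foot of the wild-type points for Idi1, Fdft1, Sqle and Lss.

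Of the 5 mevalonate enzymes 3 fell (8.20% of all genes). Acat2 (chromosome 17, 12942890 to 12960747, - strand, GRCm38), the cytosolic thiolase that joins 2 acetyl-CoA molecules, read 11.17, 11.03, 11.36 and 11.41 in wild type against 11.04, 10.78, 10.89, 10.83 and 10.86 in knockout. Wild type 2 lay just under knockout 1, so the genotypes overlapped by that pair. The difference was -0.36 (SE 0.10, limma adjusted p = 0.0246), or 22.3% lower. Leaving out wild type 3, wild type 4, knockout 2 or knockout 4 lost the call (adjusted p from 0.0578 to 0.0953).

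Hmgcs1 (chromosome 13, 119690379 to 119708260, + strand), which adds the next acetyl-CoA, was the most abundant of the 26 genes by tag value. It read 13.22, 13.29, 13.54 and 13.61 in wild type against 12.87, 13.08, 12.73, 12.74 and 12.74 in knockout. Every knockout lay below every wild type. The means were 13.41 ± 0.19 (SD, n = 4) and 12.83 ± 0.15 (SD, n = 5), a difference of -0.58 (SE 0.12, limma adjusted p = 0.00218) or 33.0% lower. Its promoter is the sequence above that holds the sterol regulatory element core.

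Mvk and Pmvk, the kinases that phosphorylate mevalonate in turn, did not pass and pointed opposite ways. Mvk read 7.15, 7.68, 7.42 and 7.50 in wild type against 6.93, 6.64, 7.05, 7.41 and 6.70 in knockout. Its difference was -0.49 (95% interval -0.88 to -0.10, limma adjusted p = 0.0866), with knockout 4 inside the wild-type range. Without knockout 4 it passed, at -0.61. Pmvk (chromosome 3, 89454541 to 89469013, + strand) read 7.27, 7.12, 7.38 and 7.22 in wild type against 7.69, 7.50, 7.56, 7.85 and 7.71 in knockout. It was the sole member with every knockout above every wild type, at 0.41 (95% interval 0.11 to 0.72, adjusted p = 0.0629).

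Mvd (chromosome 8, 122433601 to 122443422, - strand), the decarboxylase that makes the first isoprenoid unit, had the smallest p of the 26. Its wild-type values were 9.77, 10.04, 9.91 and 9.84 and its knockout values 9.21, 9.07, 9.41, 9.25 and 9.33, with a clear gap between the genotypes. The difference was -0.64 (SE 0.11, limma adjusted p = 0.000521), or 35.7% lower. Mvd acts directly on the product of Pmvk, and the tag ratio of Mvd to Pmvk within each library does not depend on scaling between libraries. On the log2 scale Mvd minus Pmvk was 2.64 ± 0.19 (SD, n = 4) in wild type against 1.59 ± 0.16 (SD, n = 5) in knockout. This pair was chosen after its values were seen and was not tested.

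Neither isoprenoid enzyme passed, and at an unadjusted p under 0.05 the count was 1 of 2 lower (14.6% of all genes). Idi1, which interconverts the isoprenoid units, was among the most variable members, with a spread within genotypes greater than that of 88.3% of tested genes. It read 10.46, 8.93, 9.32 and 10.11 in wild type against 9.59, 9.49, 8.62, 9.90 and 9.19 in knockout, so the genotypes overlapped widely. Its difference was -0.35 (95% interval -0.90 to 0.21), and single libraries moved it, to -0.09 without wild type 1, -0.60 without wild type 2, -0.21 without wild type 4 and -0.16 without knockout 3. Fdps, which makes farnesyl diphosphate, read 7.39, 7.20, 7.34 and 7.14 in wild type against 6.82, 6.29, 6.48, 7.28 and 6.72 in knockout. Here 4 knockouts lay below all wild types and knockout 4 did not (-0.55, 95% interval -0.96 to -0.14, limma adjusted p = 0.0714), and without knockout 4 Fdps passed, at -0.69.

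Of the 3 squalene enzymes 1 fell (8.20% of all genes), and its point estimate was the largest of the 26 genes. Sqle (chromosome 15, 59315077 to 59331192, + strand), squalene epoxidase, a rate-limiting oxygen-requiring step, read 9.12, 8.53, 9.33 and 9.29 in wild type against 8.52, 8.03, 7.78, 8.30 and 8.18 in knockout. All knockouts were lower, although wild type 2 and knockout 1 nearly met. The difference was -0.90 (SE 0.17, limma adjusted p = 0.00153), or 46.5% lower, and it was -1.08 without wild type 2.

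The enzymes on either side of Sqle did not pass. Fdft1, squalene synthase, read 8.06, 6.91, 7.84 and 7.86 in wild type against 8.05, 7.69, 7.90, 7.68 and 7.90 in knockout. Apart from wild type 2 the genotypes lay together, and the difference of 0.18 (95% interval -0.24 to 0.59) turned to -0.08 without that library and was 0.31 without wild type 1. Lss, which closes the ring to lanosterol, read 6.86, 5.98, 6.22 and 6.80 in wild type against 6.57, 6.12, 6.91, 6.87 and 6.54 in knockout. Its difference was 0.14 (95% interval -0.35 to 0.62). It was -0.03 without wild type 2 and ranged from 0.05 to 0.27 when any other 1 library was left out. Within each library Sqle minus Fdft1 was 1.40 ± 0.24 (SD, n = 4) in wild type against 0.32 ± 0.28 (SD, n = 5) in knockout, without overlap, a pair chosen after its values were seen and not tested.

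None of the 8 sterol ring enzymes passed, although all 8 differences were below 0 on the deposited scale, with a median of -0.26, and Tm7sf2 and Nsdhl lay above 0 in some alternatives. At an unadjusted p under 0.05 the limma count was 3 of 8 lower and none higher (14.6% and 12.9% of all genes). Those 3 were Hsd17b7, Sc5d and Cyp51. Hsd17b7, the ketosteroid reductase of the pathway, read 8.36, 8.57, 8.73 and 8.59 in wild type against 8.54, 8.05, 7.996, 8.12 and 8.17 in knockout. Knockout 1 alone reached the wild-type range (-0.39, 95% interval -0.68 to -0.10, limma adjusted p = 0.0708), and without it Hsd17b7 passed, at -0.48. Sc5d, a sterol desaturase, ranged from 9.01 to 9.36 in wild type against from 8.67 to 9.21 in knockout (-0.31, 95% interval -0.58 to -0.04), and it too passed without knockout 1, at -0.39. Cyp51, the lanosterol demethylase, lay at 11.60 to 11.86 and 11.32 to 11.62 (-0.24, 95% interval -0.45 to -0.03).

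The other 5 ring enzymes overlapped between genotypes. Dhcr7, the reductase that yields cholesterol, ranged from 6.18 to 6.63 in wild type against from 5.18 to 6.42 in knockout, where knockout 1 was lowest (-0.46, 95% interval -0.996 to 0.07, and -0.28 without knockout 1). Msmo1, the sterol methyl oxidase, was at -0.28 (95% interval -0.58 to 0.03). Ebp, the sterol isomerase, lay between 11.17 and 11.24 in the 4 wild types and spread from 10.71 to 11.33 in knockout (-0.17, 95% interval -0.41 to 0.06, and -0.09 without knockout 4). Nsdhl, which removes a carboxyl group from the ring, was at -0.05 (95% interval -0.30 to 0.20). Tm7sf2, a sterol reductase and the least abundant member by tag value, was at -0.003 (95% interval -0.58 to 0.57), with wild type 1 at 6.71 and wild types 2 and 3 both at 5.40.

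**Figure D2:**
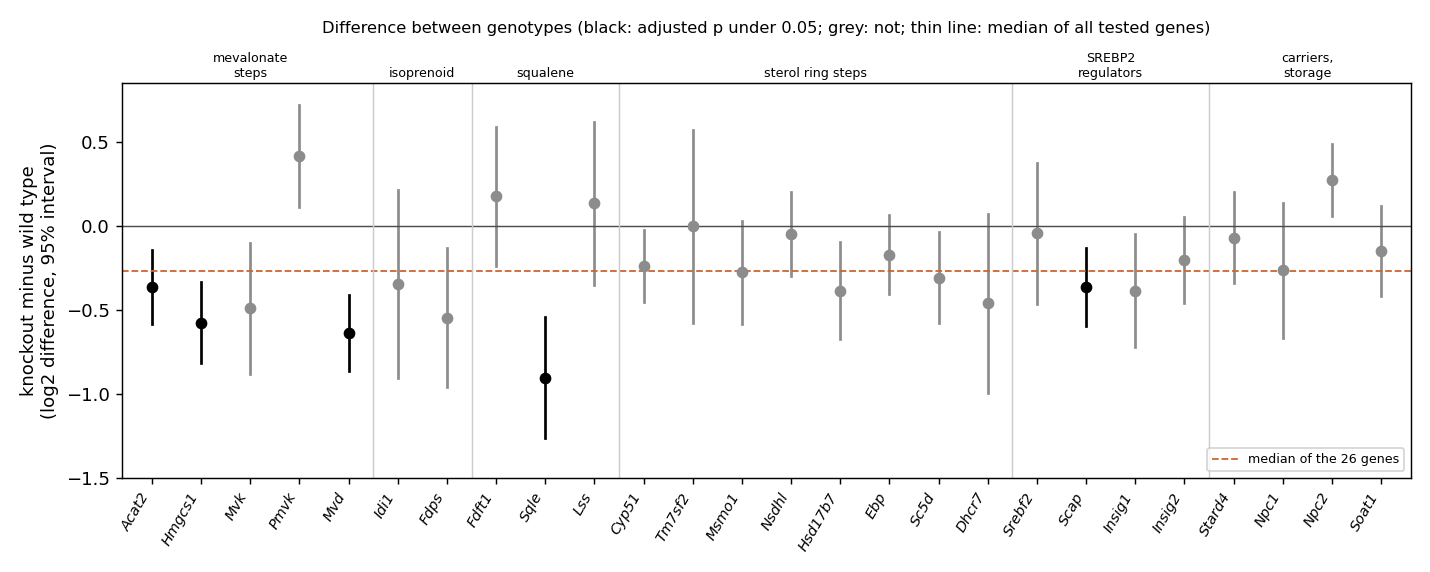
Knockout minus wild type on the log2 scale (vertical axis) with 95% limma intervals for the 26 genes in pathway order (horizontal axis); black points passed an adjusted p of 0.05, grey points did not. The dashed line is the median of the 26 genes, -0.27, and the thin line the median of all tested genes, 0.0002; Sqle lies lowest at -0.90, and Pmvk and Npc2 lie above 0 with intervals that leave it out.

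Of the 4 genes that control sterol sensing 1 fell (8.20% of all genes). Scap (chromosome 9, 110333288 to 110384950, + strand), the escort of SREBP2, read 9.53, 9.52, 9.63 and 9.70 in wild type against 9.23, 9.17, 9.08, 9.16 and 9.496 in knockout. The knockouts were all lower, though knockout 5 lay close under wild type 2. Its difference was -0.36 (SE 0.11, limma adjusted p = 0.0346), or 22.3% lower. Leaving out any 1 library other than wild type 2 or knockout 5 lost the call (adjusted p from 0.0507 to 0.107).

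Srebf2, which encodes SREBP2 itself, did not pass, with values of 7.12 to 7.51 in wild type against 6.80 to 7.82 in knockout (-0.04, 95% interval -0.46 to 0.38). Insig1, the sensor that is itself a target of SREBP2, read 7.43, 7.49, 7.35 and 7.70 in wild type against 6.997, 6.80, 7.19, 7.34 and 7.22 in knockout. All knockouts were lower, by a narrow gap at knockout 4, yet the difference of -0.39 did not pass (95% interval -0.72 to -0.05, limma adjusted p = 0.124). Insig2, its relative, ranged from 8.95 to 9.45 and from 8.88 to 9.23 (-0.20, 95% interval -0.46 to 0.05). Its difference was -0.30 without wild type 2 and -0.13 without wild type 3. Insig1 minus Insig2 within each library was -1.74 ± 0.29 (SD, n = 4) in wild type against -1.93 ± 0.26 (SD, n = 5) in knockout, a difference of -0.18 (two-sided exact permutation p = 0.357, where the smallest possible is 0.00794). That difference was -0.09 without wild type 2, -0.11 without knockout 1, -0.12 without knockout 2 and -0.30 without wild type 3.

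No gene of sterol transport or storage passed, and at an unadjusted p under 0.05 the limma count was 1 of 4 higher (12.9% of all genes). Npc2, the soluble protein that takes up cholesterol inside lysosomes, read 11.50, 11.67, 11.39 and 11.31 in wild type against 11.69, 11.63, 11.93, 11.74 and 11.72 in knockout. Only knockout 2 fell within the wild-type range, under wild type 2 (0.27, 95% interval 0.06 to 0.49, limma adjusted p = 0.0859), and without wild type 2 Npc2 passed, at 0.34. Npc1, the membrane protein that receives cholesterol from Npc2, ranged from 7.56 to 8.37 and from 7.28 to 8.12 (-0.27, 95% interval -0.67 to 0.14). It was -0.41 without wild type 2, -0.14 without wild type 3 and -0.15 without knockout 1. Stard4, a soluble sterol carrier and SREBP2 target, was at -0.07 (95% interval -0.34 to 0.20). Soat1, which esterifies cholesterol for storage, was at -0.15 (95% interval -0.42 to 0.12, and -0.09 without wild type 4).

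Hmgcs1, Mvd and Sqle fell in each of the 24 alternative analyses run. Acat2 passed in 13 of the 24 and Scap in 10. The scaling of libraries moved the balance of calls: 42.9% of all called genes were higher as deposited, and 50.5% to 64.7% were higher under 4 other scalings. The last of these, scaling to the total without Rn45s, moved the median of all genes to 0.10. Under it Hmgcs1, Mvd and Sqle fell and Pmvk and Npc2 rose. The median of the 26 genes relative to that of all genes was -0.27, as it was on the deposited scale. A single factor per library shifts nearly all genes alike, so this relative median could hardly change and its match carries no weight. With the Rn45s share as a covariate that relative median was -0.17, the smallest of the 24 alternatives, and Hmgcs1, Mvk, Mvd and Sqle fell.

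**Figure D3:**
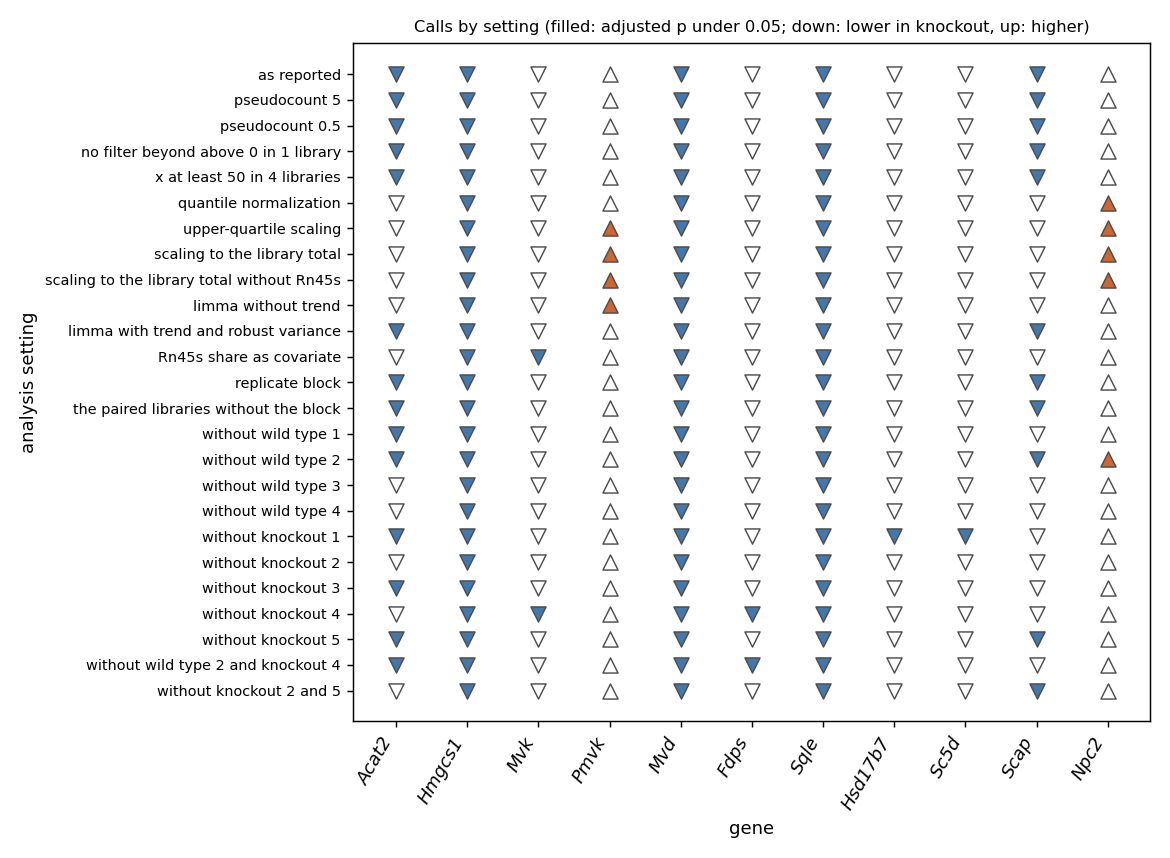
Calls of the 11 members that passed in at least 1 analysis (horizontal axis) under the reported analysis and 24 alternatives (vertical axis); a filled triangle is an adjusted p under 0.05, pointing down for lower and up for higher in knockout. The columns of Hmgcs1, Mvd and Sqle are filled throughout, Acat2 and Scap are filled in part, and the upward calls of Pmvk and Npc2 appear mainly where libraries were rescaled.

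The members differed in whether their exons overlap those of another gene. Exons of Fdps overlap the gene Gm43738 on the same strand and those of Tm7sf2 overlap Vps51 on the same strand, and exons of Fdft1, Cyp51 and Npc1 overlap Ctsb, Akap9 and Rmc1 on the other strand. Hmgcs1, Idi1, Lss and Scap overlap a noncoding or unclassified transcript. Where along the gene these overlaps lie was not examined, and tags fall at the 3′ end. How strand and shared reads were handled is not given in the sources used here, so these 9 values may be uncertain. Mvd, Sqle, Acat2, Pmvk and Insig1 overlap no annotated exon of another gene. The 26 genes lie on 15 chromosomes, and 17 of them were above the middle of tested genes by level.

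Among 6 further lists of sterol genes, 16 of 60 tested genes fell and 1 rose, with a median difference of -0.23. Of all tested genes 8.20% were lower and 6.16% higher, and these shares stand beside each list below too. A list with few genes called is not read as a result about that list. These lists were written with earlier results of the same data known and are given as counts. Electron donors and other ring proteins had 4 of 5 lower. They included Por (-0.82, SE 0.13, limma adjusted p = 0.000225), the reductase that passes electrons to squalene epoxidase and Cyp51, Lbr (-0.51, SE 0.13), the lamin B receptor, which is also a sterol reductase, and Cyb5r3 (-0.39, SE 0.11), which feeds electrons to cytochrome b5. Por also serves all other microsomal cytochromes P450.

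SREBP processing and sterol-regulated degradation had 3 of 11 lower and none higher. Among those named here, Rnf145, a ubiquitin ligase of the endoplasmic reticulum, was at -0.60 (SE 0.13, limma adjusted p = 0.00319), and Vcp, the ATPase that extracts proteins from that membrane, at -0.43 (SE 0.10). The isoprenoid branches had 2 of 13 lower, Rabggta (-0.53, SE 0.14), which prenylates Rab proteins, and Dhdds (-0.45, SE 0.13), of dolichol synthesis.

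Sterol carriers and lipoprotein receptors had 4 of 19 lower and none higher. Nceh1, a cholesterol ester hydrolase, was at -0.73 (SE 0.11, limma adjusted p = 0.000132), the sterol carrier Scp2 at -0.53 (SE 0.11) and the lysosomal lipase Lipa at -0.46 (SE 0.11). Oxysterol and bile acid synthesis split, with the hydroxylases Cyp7b1 (-0.87, SE 0.21) and Cyp27a1 (-0.64, SE 0.17) lower and Hsd3b7 (0.56, SE 0.18, adjusted p = 0.0457), a bile acid enzyme, higher, of 6 tested. Of 6 genes of oxysterol sensing and efflux 1 fell, Nr1h3 (-0.49, SE 0.12), which encodes the oxysterol receptor LXRα.

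**Figure D4:**
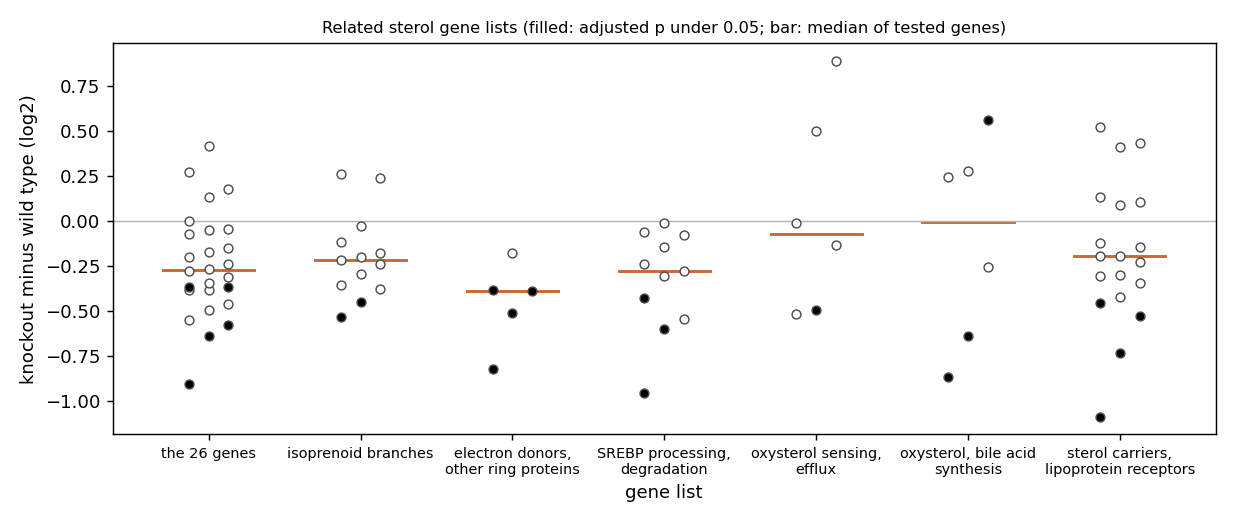
Knockout minus wild type on the log2 scale (vertical axis) for each tested gene of the 26 and of 6 related sterol lists (horizontal axis); filled points passed an adjusted p of 0.05 and bars are list medians. Filled points lie below 0 in every list except for Hsd3b7 among oxysterol and bile acid genes.

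Some markers of kidney cell types differed between genotypes too, beside 8.20% lower and 6.16% higher of all tested genes. The proximal tubule list had 5 of 15 genes lower and none higher, with a median of -0.39. Their summed level, dominated by Kap, was 51345 to 62102 ppm of adjusted reads in wild type and 37487 to 39632 in knockout. Without Kap it was 10557 to 14175 and 8551 to 10935, and wild type 2 was then the lowest of its group, inside the knockout range. The part of these shifts in the values of the 26 genes was not tested. Markers of thick limb and distal tubule (4 of 6), collecting duct (3 of 6), podocytes (1 of 6), endothelium (4 of 8), fibroblasts and smooth muscle (2 of 8) and urothelium (6 of 7) rose and none of them fell. In urothelium, Krt15 reached the filter's floor in no wild type and Upk1b only in wild type 2. The filter admitted these through high knockout values, so they could hardly be called lower and the urothelium count is partly set by it. In macrophages 1 of 7 fell, and of 6 hepatocyte markers 2 rose and 1 fell. Counts of 1 gene, for podocytes and macrophages, are not read as results about those cells. None of the 6 red blood cell symbols passed.

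Steroid-making adrenal tissue and fat both express cholesterol genes and can adhere to a kidney. Adrenal cortex markers summed to 2.41 to 5.06 ppm in wild type and 1.89 to 4.25 in knockout. Star alone passed the filter, at 4.59 to 5.995 over all 9 libraries, with a difference of -0.05 (limma adjusted p = 0.944). Cyp11a1, Hsd3b1, Cyp21a1 and Mc2r stayed at 2.10 or less, and Cyp11b1, Cyp11b2 and Nr5a1 were listed at 0 in all 9. Adipocyte markers summed to 0 to 1.47 ppm in wild type and to 0.0601, 27.6, 5.42, 5.23 and 276 in knockouts 1 to 5. The 2 tested adipocyte genes, Cfd and Cidec, were at 3.41 and 3.36 (limma adjusted p = 0.0810 and 0.0674). They met the filter only through knockouts 2 to 5, so their not passing is not read as a result about fat. Without knockout 5 the same 5 genes of cholesterol metabolism fell. Without both knockout 2 and knockout 5, Hmgcs1, Mvd, Sqle and Scap fell and Acat2 did not pass (limma adjusted p = 0.141). Knockouts 3 and 4, still in that fit, also had adipocyte sums above those of wild type. The part of fat or adrenal tissue in the values of the 26 genes was not tested.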

How the data were processed

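The authors deposited 1 table per library holding log2(x + 1), rounded to 3 decimals, where x is a read count adjusted between libraries, as judged from the values. Per the submitters' processing notes, Bowtie2, bedtools and the mouse build mm10 were used; versions, normalization tool, annotation and strand setting: not given in the sources used here. Raw depth is unknown, so precision rests on the spread between libraries.

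Rows with x of at least 10 in 4 libraries were tested. The test was limma's moderated test with a variance trend (limma 3.58.1, R 4.3.3), run two-sided on the deposited values with genotype alone in the model, and p-values were adjusted by Benjamini-Hochberg across the 13481 rows. The fit was tested on simulated data. Library measures and the Insig1 to Insig2 ratio were compared by exact permutation. Gene positions came from GENCODE M21 (GRCm38) and promoters from RefSeq. No pair of the 9 files was identical. Alternatives covered pseudocount, filter, scaling, model, Rn45s as a covariate, pairing and left-out libraries.

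The 26 genes and all lists were chosen with earlier results of these data known. The rule for named genes takes the 26, up to 3 called genes a list with the smallest adjusted p, and the 2 most abundant of each cell type list, although cell type lists are given here as counts. Kap, Krt15, Upk1b, Cfd, Cidec and the adrenal genes were named after their values were seen. A result of 1 gene in a related list is not reported here.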

Additional observations from a re-analysis of the deposited data

Results flagged for a closer look

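Globin transcripts took 1.4555% of adjusted reads in wild type 2, against 0.585% to 0.690% in the other 3 wild types, and its gap to them made up 0.879 of the group's range. No value of the 26 genes stood out in the same way; 60 groups of 4 or 5 values were examined, and chance alone flags about 1 in 20.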

How the results depend on the processing

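Hmgcs1, Mvd and Sqle passed in all 24 alternatives, at differences of -0.64 to -0.46, -0.69 to -0.53 and -1.12 to -0.70, and no call changed sign. Members called lower fell from 5 to 3 with quantile normalization, upper-quartile scaling, scaling to the library total, the same without Rn45s, and limma without a trend; members called higher were then 1, 2, 2, 2 and 1. The median of the 26 genes was -0.17 with scaling to the total without Rn45s. All-gene calls fell from 1937 to 1222 with Rn45s as a covariate (4 members lower, median -0.17) and to 1068 without knockouts 2 and 5. Without wild type 2 and knockout 4 they numbered 1874. The cause of these and the preceding shifts was not tested. Leaving out each library in turn gave 1426 to 2277 calls, 3 to 6 members lower, 0 to 1 higher and a median of -0.38 to -0.21; the median was -0.38 without wild type 2, when Npc2 also passed. Symbols with x of at least 10 numbered 13151 ± 76.7 in wild type and 13399 ± 53.2 in knockout (exact permutation adjusted p = 0.0238). Leaving out a library gave differences of 226 to 279.7, with exact permutation adjusted p of 0.0536 to 0.0857. The unadjusted p was then the smallest that so few libraries allow. After adjustment it could pass only if the other library measures also had a small p, so these runs decide little. Both signs occurred over the alternatives for 6 uncalled members, Fdft1, Lss, Tm7sf2, Nsdhl, Srebf2 and Stard4.

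Titles number the libraries of both genotypes, and 4 numbers are shared. Same-numbered libraries deviated together at r of 0.15, 0.0009, -0.01 and 0.04 across genes. Differently numbered libraries did so at -0.16 to 0.09. Number 1 had the highest r of all and the others did not stand out, so a pairing by number was not shown. With the replicate block 1739 genes and 5 members were called, against 1634 and 5 in the same 8 libraries without it. Those 8 are all libraries but knockout 5, so the alternative without the block repeats the fit without knockout 5. The alternative without the block and leaving out knockouts 2 and 5 were chosen after seeing the data. For Insig1 minus Insig2 the block gave -0.21 (exact p = 0.5, in a paired test of 4 that cannot pass).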

Other observations

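Some genes of lipoprotein uptake and sterol control were named after their values were seen. Srebf1, which encodes the related factor SREBP1, was at 7.69 in wild type and 7.39 in knockout (-0.31, SE 0.15, limma adjusted p = 0.205), so neither SREBP gene passed. The cholesterol exporter Abca1 was at -0.51 (SE 0.19, adjusted p = 0.0758) and Abcg1 at 0.89 (SE 0.39, adjusted p = 0.142). Scarb1, the receptor for high-density lipoprotein, was at 0.52 (SE 0.21, adjusted p = 0.111) and Vldlr, a lipoprotein receptor, at -0.30 (SE 0.13, adjusted p = 0.147). Soat2, the esterifying enzyme of gut and liver, stayed below the filter, at most 2.24 in any library, while Soat1 read 7.96 or more in all 9.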
